A study of Homo sapiens with 6 samples.

Results

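Kallikrein-related peptidases are secreted serine proteases encoded side by side on chromosome 19, and 10 of them, KLK5 to KLK14, were taken by gene symbol from the RNA sequencing counts of MCF-12A cells. Of these 10 genes, 6 had a row in the table of 14803 genes (KLK5, KLK6, KLK7, KLK8, KLK10 and KLK11), all 6 passed the filter on low counts, and the other 4 (KLK9, KLK12, KLK13 and KLK14) were not analysed here. MCF-12A is a non-tumorigenic breast epithelial line. For 24 h the cells received octanoic acid (OA), which is a fatty acid of medium chain length and was supplied as its sodium salt, or the PBS in which it was dissolved (vehicle). Each group had 3 libraries, all of the same line in complete growth medium, and the dose given to this line was not used here. The labels do not say whether the 3 libraries of a group were separate cultures, so p-values measure the spread between these libraries only, which may be technical.

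Kallikrein-related peptidases are made as inactive proenzymes and are switched on by cleavage, often by one another. In skin they act as a cascade in which KLK5 activates KLK7 and both cut the junctions that hold cornified cells together, and the Kazal-type inhibitor LEKTI, encoded by SPINK5, restrains them. In the breast they are products of epithelial cells, and KLK10 was first described as a gene expressed in normal mammary epithelium and lost in breast cancer lines.

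The 6 genes lay within 84.7 kb of chromosome 19 (hg38, 50943303 to 51028034), all on the minus strand, in the order KLK5, KLK6, KLK7, KLK8, KLK10 and KLK11. The windows around the start sites of KLK6, KLK11 and KLK5 are shown because the first pair rose in OA and the third did not. Each runs from 250 bases before to 50 bases after a RefSeq start site (GRCh38.p14, minus strand, 5′ to 3′), and capitals mark CACCC on either strand, a motif of Kruppel-like factors. They lie at chr19:50969542-50969841, chr19:51027597-51027896 and chr19:50952989-50953288. The start site of the KLK11 window lay 388 bases inside the gene model of the count table, that of KLK6 82 bases and that of KLK5 50 bases.

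KLK6: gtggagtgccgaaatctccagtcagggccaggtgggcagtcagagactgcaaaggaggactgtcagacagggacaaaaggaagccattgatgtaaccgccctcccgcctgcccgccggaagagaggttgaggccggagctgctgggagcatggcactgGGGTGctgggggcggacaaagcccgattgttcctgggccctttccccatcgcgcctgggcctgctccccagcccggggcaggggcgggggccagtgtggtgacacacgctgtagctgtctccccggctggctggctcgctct
KLK11: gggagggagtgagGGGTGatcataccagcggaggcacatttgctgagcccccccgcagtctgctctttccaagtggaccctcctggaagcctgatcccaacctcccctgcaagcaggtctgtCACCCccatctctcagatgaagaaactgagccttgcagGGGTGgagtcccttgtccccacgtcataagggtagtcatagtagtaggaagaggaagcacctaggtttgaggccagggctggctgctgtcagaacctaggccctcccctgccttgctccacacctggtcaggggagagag
KLK5: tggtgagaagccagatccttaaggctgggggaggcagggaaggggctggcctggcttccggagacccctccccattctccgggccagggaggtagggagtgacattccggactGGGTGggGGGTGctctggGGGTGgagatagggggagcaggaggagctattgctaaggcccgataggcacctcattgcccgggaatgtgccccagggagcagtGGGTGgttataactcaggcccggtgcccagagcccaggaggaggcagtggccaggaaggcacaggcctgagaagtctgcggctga

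Windows were found for 5 of the 6 genes, KLK8 excepted. CACCC was present in all 5, with 1 match each for KLK6 and KLK7, 2 for KLK10, 3 for KLK11 and 4 for KLK5, and it was also present in 59.9% of all 35116 windows of the same length. The TATA box TATAAA (11.5% of all windows), the AP-1 motif TGANTCA (7.71%), the steroid receptor motif AGAACA (14.8%) and the nuclear receptor motif AGGTCA (13.8%), each searched on both strands, were in none of the 5 windows. Among these 5 windows, the numbers of CACCC matches for KLK6 and KLK11, which rose, lay within the range of the genes that did not. A role of the motif was not tested.

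The comparison of OA with vehicle asked how a fatty acid changes transcription in breast epithelial cells. KLK8, KLK11 and KLK6 rose, KLK10 was called lower, and KLK5 and KLK7 did not pass the test. Over all 14785 genes tested, 43.3% were called higher and 41.1% lower, 84.5% in either direction (adjusted p under 0.01, edgeR's quasi-likelihood test with Benjamini-Hochberg adjustment over all genes, n = 3 per group), so the 3 of 6 kallikrein genes called higher were close to the share in the whole table, and the 1 of 6 called lower was below it. The libraries of the groups did not overlap for 4 of the 6 genes, against 88.8% of all genes. The median log2 fold change of the 6 genes was 0.47, beside 0.03 for all genes.

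KLK8 encodes neuropsin, a trypsin-like protease studied in synaptic plasticity in mouse hippocampus and present in skin. It had 6.72, 6.73 and 6.63 CPM (counts relative to the library total, rescaled by edgeR's TMM factors, which assume that most genes do not change) in OA replicates 1, 2 and 3, against 1.32, 2.03 and 1.73 CPM in vehicle replicates 1, 2 and 3. All OA libraries were higher than all vehicle libraries, and the OA libraries lay close together. The rise was 4.00-fold, a log2 fold change of 2.00 (SE 0.13, adjusted p = 6.7e-12). In GENCODE, 38.6% of the exonic bases of KLK8 also belong to a further protein-coding gene on the same strand, so reads from those bases cannot be told apart.

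KLK11 encodes a trypsin-like protease also called hippostasin. It had 1.60, 1.48 and 1.84 CPM in OA and 0.500, 0.353 and 0.408 CPM in vehicle, from 87, 81 and 96 counts in OA and 27, 16 and 16 counts in vehicle. The groups did not overlap, and the log2 fold change was 1.94 (SE 0.22, adjusted p = 5.7e-08). KLK6 encodes a trypsin-like protease best known from the nervous system, where it can cut myelin proteins and alpha-synuclein. It had 1.57, 2.17 and 1.77 CPM in OA and 0.685, 1.08 and 0.842 CPM in vehicle, a log2 fold change of 1.09 (SE 0.20, adjusted p = 4.56e-05). Its highest vehicle library stayed below its lowest OA library. Of the KLK6 exonic bases, 21.2% also lie in a long noncoding gene on the opposite strand. The same noncoding gene covers 12.9% of the KLK5 exonic bases, and another on the opposite strand covers 7.3% of those of KLK10. Whether reads were counted by strand is not given in the sources used.

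**Figure D1:**
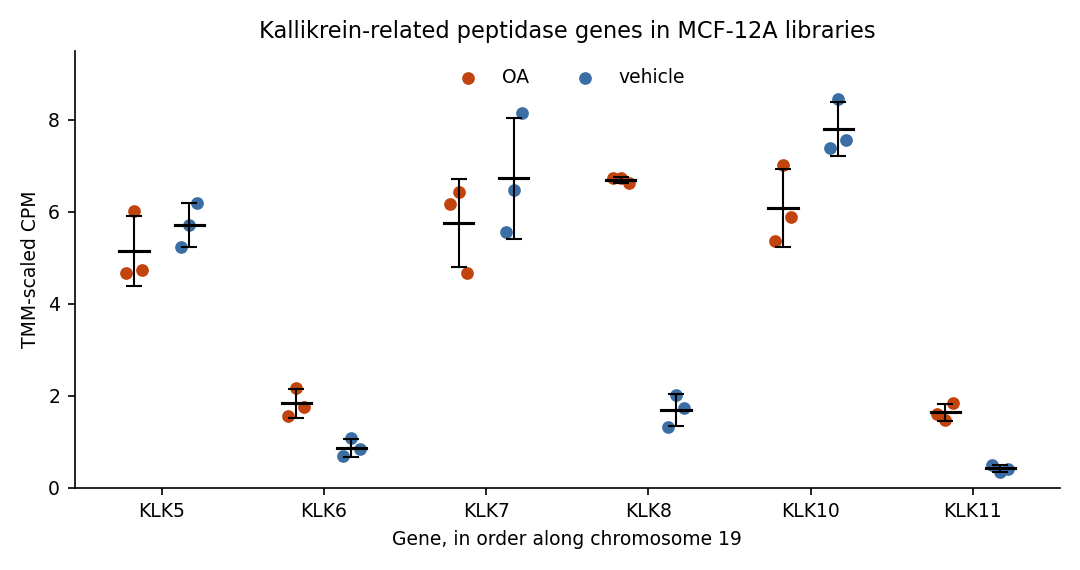
TMM-scaled CPM of each gene in the 3 OA and 3 vehicle libraries; points are libraries, horizontal bars are means and error bars are SD. For KLK6, KLK8 and KLK11 every OA point lies above every vehicle point, for KLK10 every OA point lies below, and for KLK5 and KLK7 the groups overlap.

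KLK5, the trypsin-like enzyme at the head of the skin cascade, had 4.68, 6.02 and 4.74 CPM in OA and 5.24, 5.71 and 6.20 CPM in vehicle. The groups overlapped, with a log2 fold change of -0.14 (SE 0.11, adjusted p = 0.214). The 95% interval of the ratio ran from 0.775 to 1.06. KLK7, the chymotrypsin-like enzyme that KLK5 activates, had 6.17, 6.42 and 4.67 CPM in OA and 5.56, 6.48 and 8.14 CPM in vehicle. OA replicate 3 was the lowest library and vehicle replicate 3 the highest, and the groups again overlapped (log2 fold change -0.21, SE 0.13, adjusted p = 0.131). The interval of its ratio was 0.719 to 1.04, so with TMM scaling neither gene's interval reached a 1.5-fold change in either direction.

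KLK10, a protease-like protein of normal mammary epithelium, had 5.36, 7.01 and 5.88 CPM in OA and 7.39, 8.46 and 7.55 CPM in vehicle. OA replicate 2 came closest to the vehicle libraries, and the log2 fold change was -0.36 (SE 0.098, adjusted p = 0.00222), a fall to 0.781 of vehicle. The call was lost with upper quartile scaling (-0.13, adjusted p = 0.216) and with library totals only (-0.07, adjusted p = 0.492). It was also lost without OA replicate 1 (adjusted p = 0.0112) and without vehicle replicate 2 (adjusted p = 0.0208). KLK6, KLK8 and KLK11 passed under each of the 14 other fits, with log2 fold changes of 0.92 to 1.37, 1.82 to 2.28 and 1.83 to 2.23.

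**Figure D2:**
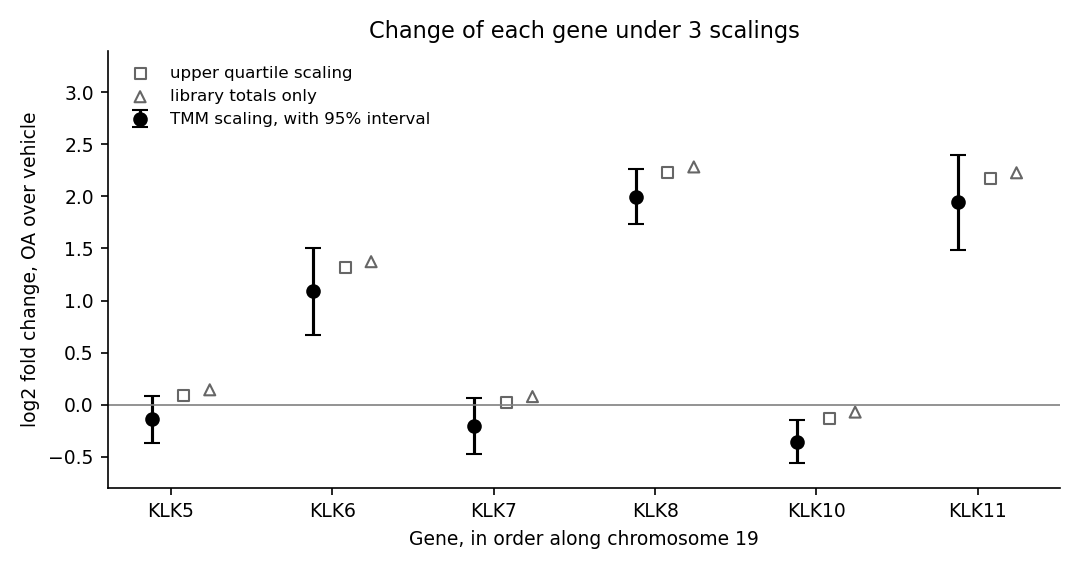
Log2 fold change of OA over vehicle for each gene in order along chromosome 19, with TMM scaling (circles, bars are 95% intervals), upper quartile scaling (squares) and library totals only (triangles). KLK6, KLK8 and KLK11 lie above 0 under all 3 scalings, KLK10 lies below 0 under all 3 but close to it with library totals only, and KLK5 and KLK7 lie below 0 with TMM and above 0 with both other scalings.

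Scaling moved the whole table and with it the sign of the smallest changes. With library totals only, the median over the table was 0.32 on the log2 scale and 65.4% of calls were higher (8223 genes higher and 4341 lower), and upper quartile scaling gave a median of 0.26 and 62.6% higher. With TMM the share was 51.3%, from 6409 genes higher and 6084 lower. Ratios between kallikrein genes within a library do not depend on scaling. The ratio of KLK8 to KLK5 counts was 1.44, 1.12 and 1.40 in OA and 0.251, 0.355 and 0.280 in vehicle. That of KLK11 to KLK10 was 0.299, 0.211 and 0.314 in OA and 0.0677, 0.0417 and 0.0541 in vehicle. Neither ratio overlapped between the groups. Each reached the smallest p that 3 against 3 allows (exact permutation test, two-sided, p = 0.1, adjusted p = 0.2 over 4 ratios). Each set a gene called higher in these libraries over a gene that was not. The direction of both ratios was fixed by that choice, so they are descriptions. The ratio of KLK7 to KLK5 averaged 1.12 ± 0.17 in OA and 1.17 ± 0.13 in vehicle (SD, n = 3, exact permutation test p = 0.8, adjusted p = 0.8). The ratio of KLK10 to KLK5 averaged 1.18 ± 0.049 in OA and 1.37 ± 0.14 in vehicle (SD, n = 3, exact permutation test p = 0.2, adjusted p = 0.267).

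Levels of different genes were compared as CPM per kilobase of the deposited gene length. In OA the order of mean levels was KLK8 at 5.83 ± 0.052, KLK5 at 3.29 ± 0.48, KLK7 at 2.69 ± 0.44, KLK10 at 1.85 ± 0.26, KLK11 at 1.07 ± 0.12 and KLK6 at 0.970 ± 0.16 CPM per kb (SD, n = 3). In vehicle it was KLK5 at 3.66 ± 0.31, KLK7 at 3.15 ± 0.61, KLK10 at 2.37 ± 0.18, KLK8 at 1.47 ± 0.31, KLK6 at 0.459 ± 0.10 and KLK11 at 0.273 ± 0.048 CPM per kb. KLK8 thus stood highest of the 6 in every OA library and was the fourth by mean in vehicle. KLK5 and KLK7 overlapped in both groups, KLK11 and KLK6 overlapped in OA, and the other neighbours in each order did not.

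The summed level of the 6 genes changed less than its make-up. It was 26.1, 29.8 and 25.5 CPM in OA and 20.7, 24.1 and 24.9 CPM in vehicle, 1.17 times higher on average. KLK6, KLK8 and KLK11, grouped here because they were called higher, gave 37.9% (95% Wilson interval 35.4 to 40.5), 34.8% (32.5 to 37.1) and 40.1% (37.5 to 42.8) of the counts of the 6 genes in OA. They gave 12.1% (10.3 to 14.1), 14.4% (12.4 to 16.6) and 12.0% (10.1 to 14.2) in vehicle. Per kilobase these shares averaged 50.2 ± 3.0% in OA and 19.3 ± 2.0% in vehicle (SD, n = 3). The direction of this share was fixed by the choice of the 3 genes, so it is a description.

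**Figure D3:**
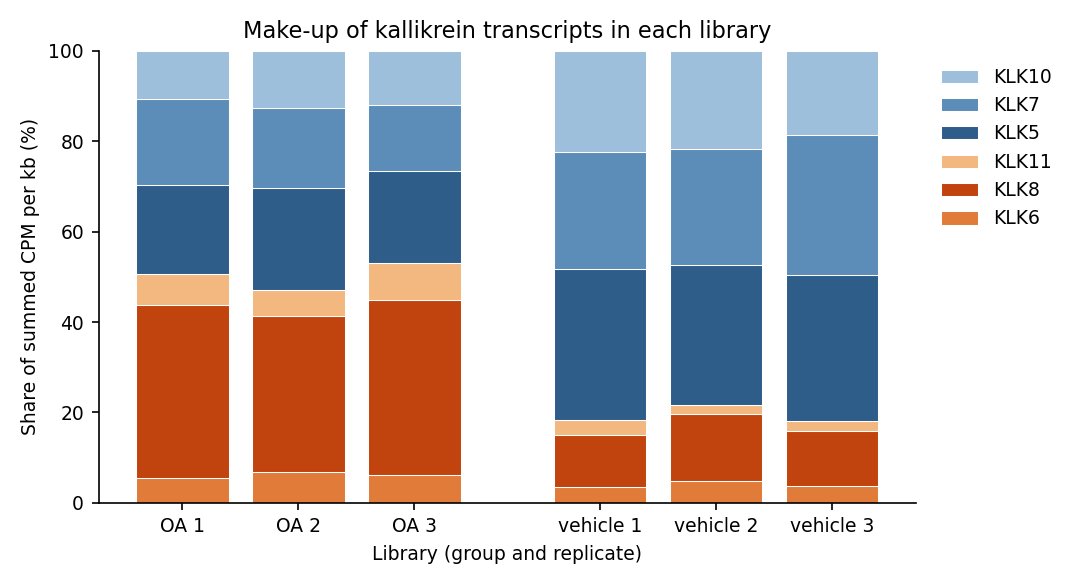
Share of each gene in the summed CPM per kb of the 6 kallikrein genes, for each OA and vehicle library. KLK6, KLK8 and KLK11 (orange shades) make up 47.0 to 53.0% in OA libraries and 18.1 to 21.7% in vehicle libraries.

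All 6 genes were low. Their counts ran from 81 to 384 per library in OA and from 16 to 399 in vehicle, and together they took 0.0028 to 0.0033% of all counts in OA libraries and 0.0019 to 0.0023% in vehicle libraries. Genes at a like level often rose. Of 1979 genes with a vehicle mean of 0.4 to 2 CPM, the range of KLK6, KLK8 and KLK11, 58.0% were called higher with a median log2 fold change of 0.90, and 46.7% were called higher by more than 2-fold. Of 738 genes at 5 to 8 CPM, the range of KLK5, KLK7 and KLK10, 61.0% were called higher and 19.2% lower, with a median of 0.52. Both ranges were chosen after the values were seen. In these bulk libraries a change in the share of cells that express a gene and a change in RNA per cell cannot be told apart.

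In the order of the 6 tested genes, KLK6, KLK8 and KLK11 each lay next to one of KLK5, KLK7 and KLK10. Genes that rose and genes that did not thus alternated among those tested along the locus. Outside it, KLK1, which encodes tissue kallikrein, the protease that frees kinins from kininogen, had 1.88, 1.50 and 1.86 CPM in OA and 0.130, 0.110 and 0.0510 CPM in vehicle (log2 fold change 4.08, SE 0.30, adjusted p = 7.34e-11). Its vehicle libraries held 7, 5 and 2 counts. The pseudogene KLKP1, the nearest tested gene on the side of KLK5, had 59, 32 and 33 counts in OA and 4, 1 and 0 in vehicle (log2 fold change 4.33, SE 0.53, adjusted p = 2.14e-07, and 5.75 without vehicle replicate 1). The nearest tested gene on the side of KLK11, CTU1, which encodes a tRNA-modifying enzyme, fell (log2 fold change -0.69, adjusted p = 6.92e-07). Of the 10 nearest tested genes on each side, 12 of 20 were called higher and 4 lower, against 43.3% and 41.1% of all genes. LRRC4B, SHANK1, KLK1 and KLKP1 are among these 12 and had 0 to 7 counts per vehicle library. C19orf81, also among them, had 21, 9 and 6 counts in vehicle. These genes passed the filter on low counts only through the OA libraries and had to differ. SNORD88B, among the 4 called lower, had 5, 6 and 6 counts in OA and passed that filter only through the vehicle libraries.

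**Figure D4:**
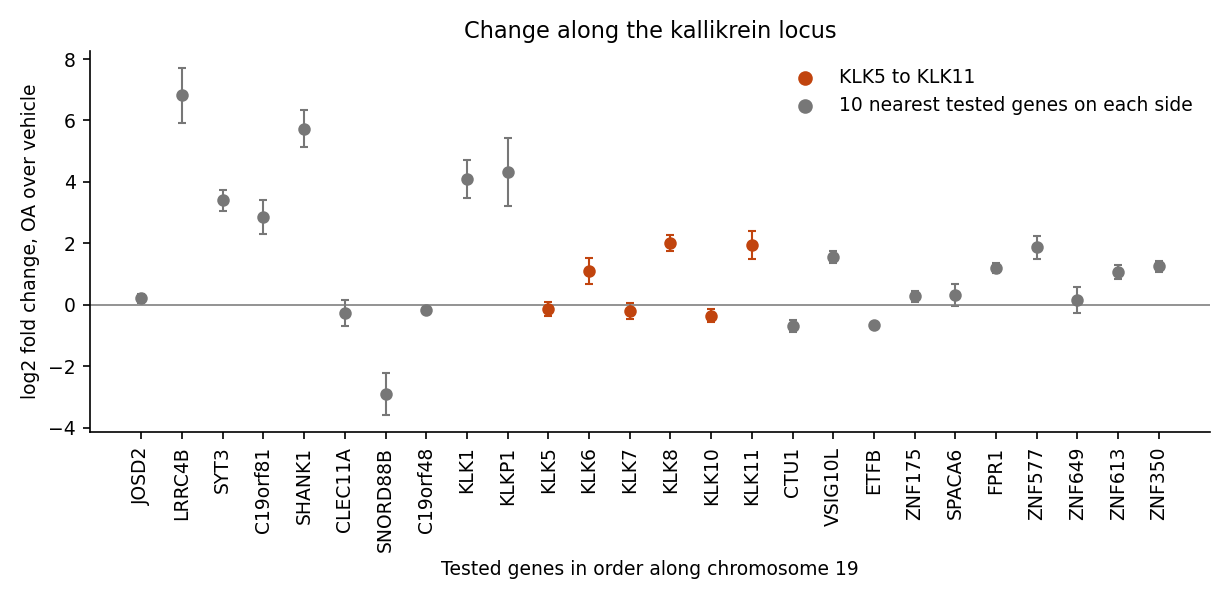
Log2 fold change of OA over vehicle (points) with 95% intervals (bars) for the 6 kallikrein genes KLK5 to KLK11 (orange) and the 10 nearest tested genes on each side (grey), in order along chromosome 19. KLK5, KLK7 and KLK10 lie between -0.36 and -0.14, KLK6, KLK8 and KLK11 between 1.09 and 2.00, and KLK1 and KLKP1 above 4.

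Of 15 inhibitors of serine proteases tested, 10 were called higher and 3 lower (median log2 fold change 0.93), against 43.3% and 41.1% of all genes. SPINK1, SERPINC1 and SERPING1, among the 10, had 0 to 9 counts per vehicle library. All of them passed the filter on low counts only through the OA libraries and had to differ. SPINT1, which encodes a membrane-bound Kunitz inhibitor, averaged 195 ± 5.2 CPM in OA and 57.6 ± 1.8 CPM in vehicle (SD, n = 3). On the log2 scale SLPI, the gene of secretory leukocyte protease inhibitor, rose by 0.98 and the serpin gene SERPINB1 by 1.10. The inhibitor most tied to these proteases went the other way: SPINK5 (LEKTI) averaged 2.03 CPM in OA and 3.42 CPM in vehicle, a log2 fold change of -0.74 (SE 0.13, adjusted p = 2.23e-05). PI3, which encodes elafin, fell as well (-1.36). The choice to name SPINK5 and PI3 came after their values were known.

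Of 14 other epithelial serine protease genes, 9 were called higher and 4 lower (median 0.71), against 43.3% and 41.1% of all genes. The prostasin gene PRSS8 averaged 59.9 ± 1.1 CPM in OA and 10.1 ± 0.53 CPM in vehicle (SD, n = 3). PRSS3, which encodes mesotrypsin and has close trypsinogen paralogs that could share reads, rose by 4.01 on the log2 scale. PLAU, the urokinase gene, fell by 1.19 on the log2 scale.

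Of 24 genes of reported substrates and receptors, 16 were called higher and 7 lower (median 0.44), against 43.3% and 41.1% of all genes. With library totals only the lower calls were 3, APP had the opposite sign, and F2RL1 and FN1 were among the genes that did not pass. IGFBP3, an insulin-like growth factor binding protein gene, rose by 2.97 on the log2 scale, PLAUR, the urokinase receptor gene, by 1.60 and the ephrin receptor gene EPHB2 by 1.48. Cell junction genes of this list went both ways. CDSN, which encodes corneodesmosin, averaged 0.949 CPM in OA against 2.31 CPM in vehicle (log2 fold change -1.27, SE 0.18, adjusted p = 1.2e-06). DSG1, which encodes desmoglein 1, averaged 0.148 CPM in OA against 0.766 CPM in vehicle (log2 fold change -2.34, SE 0.34, adjusted p = 2.16e-06). With 12, 8 and 4 counts in OA, DSG1 passed the filter on low counts only through the vehicle libraries and had to differ, so its p-value is no support. The more abundant DSG3 (desmoglein 3, 0.59), DSC3 (desmocollin 3, 0.33) and CDH1 (E-cadherin, 0.76) rose on the log2 scale. F2RL1, the gene of protease-activated receptor 2, had a log2 fold change of -0.20 that turned to 0.026 with upper quartile scaling and 0.084 with library totals only, without passing there, and passed with DESeq2-type size factors (-0.22). CDSN, DSG1, DSG3, DSC3, CDH1, F2RL1, APP and FN1 were likewise chosen with their values known.

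Late epidermal differentiation genes, expressed in the layers where kallikreins act in skin, split into 7 higher and 9 lower of 16 (median -0.41, or -0.13 with library totals only, which left 6 lower), against 43.3% and 41.1% of all genes. ELOVL4 (3.43), ALOXE3 (2.76) and SPRR2D (2.27), a member of a cluster of near-identical genes, rose on the log2 scale. The other tested SPRR genes, SPRR1A (-1.67), SPRR1B (-1.44), SPRR2A (-1.73) and SPRR3 (-1.66), fell, as did the cornified envelope genes IVL (-2.29) and TGM1 (-1.44), all 6 named with their values known. Of 20 nuclear receptor and epithelial transcription factor genes 15 were called higher and 4 lower (median 0.76), against the same shares of all genes. TP63, the gene of the basal factor p63, fell (-1.46), and KLF5 (0.76) and CEBPA (2.42) rose.

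The gene with the highest mean CPM over all 6 libraries was KLK10, although KLK8 was higher in OA (6.69 CPM, against 6.08 CPM for KLK10). Among genes of at least 5 CPM, those whose log2 CPM ran closest to KLK10 over the 6 libraries were TMEM243 (Pearson r = 0.993), SNX19 (r = 0.988) and BMS1P20 (r = 0.980). They share libraries and scaling factors with KLK10. They were picked as the highest of all such genes, so these values of r are descriptions.

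The libraries held 47508208 to 49585010 counts in OA and 43049972 to 59935521 in vehicle, and log2 fold changes had an SE of 0.053 at the median gene. Of 12 mammary epithelial markers 11 were tested, with 4 called higher and 7 lower, against 43.3% and 41.1% of all genes. The same shares of all genes stand beside the counts of the other marker lists below. The basal keratin gene KRT5 averaged 1061 CPM in OA and 3918 CPM in vehicle. The 4 mammary markers called higher were KRT17 (log2 fold change 0.60), LAMB3 (1.59), EPCAM (0.92) and CDH1 (0.76), named with their values known. The 7 called lower were KRT5 (-1.89), KRT14 (-2.22), ITGA6 (-1.56), TP63 (-1.46), ITGB4 (-0.61), KRT18 (-0.45) and KRT8 (-0.23). With upper quartile scaling or library totals only, KRT8 did not pass. Of 8 immune and endothelial markers 2 were tested, CD68, which was higher (1.41), and PECAM1, which was lower (-0.87), and PTPRC, CD3E, LYZ, VWF and CDH5 were among those with no row. Of 13 hepatocyte markers 9 were tested and all 9 were called higher, but only 6 without OA replicate 3 and 2 with DESeq2. Their summed level was 1.88, 18.7 and 75.2 CPM in OA replicates 1, 2 and 3 and 0.593, 4.54 and 2.83 CPM in vehicle. Of 7 fibroblast markers 4 were tested and 3 were called higher, with a summed level of 105 to 108 CPM in OA and 61.4 to 76.5 CPM in vehicle. In vehicle, KLK6, KLK8 and KLK10 were, like the hepatocyte sum, lowest in replicate 1 and highest in replicate 2. KLK11 was instead highest in vehicle replicate 1 and lowest in replicate 2, and KLK5 and KLK7 were highest in replicate 3. In OA, KLK11 was, like that sum, highest in replicate 3. KLK7 and KLK8 were lowest in OA replicate 3, and KLK5, KLK6 and KLK10 were highest in OA replicate 2. Without OA replicate 3 the kallikrein genes still gave 3 higher and 1 lower. The part of these markers in the kallikrein results was not tested.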

How the data were processed

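For 6 MCF-12A libraries, 3 per group, the authors deposited raw counts per gene, made with STAR 2.5 (hg38) and featureCounts 1.5.1 after low-quality and multi-mapped reads were excluded, beside each gene's exonic length. Read length and layout differ between the sources. The smallest sum over libraries was 14 counts, so low genes had been removed by a rule the sources used here do not state.

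The main test was the two-sided quasi-likelihood test of edgeR 4.0.16 (R 4.3.3), OA against vehicle with no covariate, after filterByExpr (18 genes removed) and TMM scaling, at a false discovery rate of 0.01 over 14785 genes. The SE is the absolute log2 fold change over the square root of F. Alternatives were the likelihood ratio test (the study's method), DESeq2 1.42.0, other scalings and filters, a rate of 0.05, a replicate block and omission of each library. The code was tested on simulated data. Counting intervals (95%) cover counting error only. Libraries of a group differed by more than counting noise.

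Genes and lists were chosen with earlier results of these data known. Named were all listed kallikrein genes, other kallikrein genes of the locus, up to 3 per list by smallest p (past the threshold, at least 1 CPM in the higher group), the nearest tested gene on each side, and the 3 best correlated with the most abundant gene. Start-site windows came from RefSeq (GRCh38.p14) and overlaps from GENCODE.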

Additional observations from a re-analysis of the deposited data

How the results depend on the processing

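The count of kallikrein genes called higher was 3 under all 15 alternatives. The count called lower, 1 with KLK10, was 0 with upper quartile scaling, 0 with library totals only, and 0 to 1 when each library was left out in turn. KLK10 had log2 fold changes of -0.28 without OA replicate 1 and -0.30 without vehicle replicate 2. The log2 fold change of KLK5 changed sign to 0.084 with upper quartile scaling and to 0.14 with library totals only. That of KLK7 changed sign to 0.018 with upper quartile scaling and to 0.077 with library totals only, and neither gene passed the threshold. The summed level of the 6 genes, 1.17 times vehicle with TMM, was 1.37 times with upper quartile scaling and 1.42 times with library totals only. Under those scalings the median of all genes was 0.26 and 0.32 on the log2 scale, against 0.03 with TMM. Counts over all genes ran from 5961 to 8223 higher and from 4341 to 6354 lower.

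Same-numbered libraries did not deviate together (correlations of 0.081, 0.013 and -0.026), and OA replicate 3 correlated best with vehicle replicate 2. With the replicate block, 6294 genes were higher and 5983 lower, and the kallikrein genes gave 3 higher and 1 lower. At 16 to 27 counts per vehicle library for KLK11, depth limits the precision of its fold change (SE 0.22).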
